A study of Mus musculus with 2 samples.

Results

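Gas1, Boc and Cdon encode the cell-surface co-receptors of the hedgehog pathway. They were chosen by name, and all 3 were listed in both deposited count tables, among 16236 genes at E11.5 and 17775 genes at E13.5. The study profiled single cells of the mandibular prominence, the embryonic tissue of the lower jaw and tongue, by droplet RNA sequencing on a 10x Chromium instrument. The embryos were wild-type CD1 mice, an outbred stock, at embryonic day 11.5 (E11.5) or 13.5 (E13.5), with no allele, agent or treatment that set the stages apart other than the dissociation. Each stage was 1 library, of 7099 and 6318 cells, and the tissue was digested with 3 and 5 mg/ml of a cold-active protease, so stage, library and protease strength cannot be told apart. No test across replicates was possible, all intervals below are 95% intervals that cover counting error only, and no p-value is given.

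Hedgehog ligands bind Patched-1 (Ptch1), which otherwise holds the signal transducer Smoothened (Smo) inactive, and released Smo acts through the Gli transcription factors at the primary cilium. Gas1, a protein held to the membrane by a GPI anchor, and Boc and Cdon, related transmembrane proteins of the immunoglobulin superfamily, bind the ligand together with Ptch1 and promote the response. In several embryonic tissues their genes are known to be repressed where hedgehog signalling is high, while Ptch1, Gli1 and Hhip are known to be induced there. In the head, loss of these co-receptors, above all in combination, is known to give midline and facial defects, and in the mandibular prominence Sonic hedgehog (Shh) is made by the epithelium.

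The genes differ in structure. In the GENCODE annotation of GRCm38 (mm10), Gas1 lies on the minus strand of chromosome 13 (chr13:60174405-60177365), and its longest coding transcript has 1 exon of 2961 bases. Boc lies on the minus strand of chromosome 16 (chr16:44485049-44558897), with 19 exons and 4451 bases in its longest coding transcript. Cdon lies on the plus strand of chromosome 9 (chr9:35421128-35507652), with 20 exons and 7503 bases. The 5′ part of Gas1 overlaps a long noncoding RNA gene of the opposite strand, Gm48488, which neither table lists. The sequence shown is the upstream region of Gas1, the member with the most UMIs and the one whose mesenchymal clusters were best told apart at E13.5. It is the RefSeq window of the 250 bases before the annotated start (GRCm38.p6, minus strand, chr13:60177536-60177785, written 5′ to 3′), and the capitals mark a CCAAT motif.
Gas1 upstream: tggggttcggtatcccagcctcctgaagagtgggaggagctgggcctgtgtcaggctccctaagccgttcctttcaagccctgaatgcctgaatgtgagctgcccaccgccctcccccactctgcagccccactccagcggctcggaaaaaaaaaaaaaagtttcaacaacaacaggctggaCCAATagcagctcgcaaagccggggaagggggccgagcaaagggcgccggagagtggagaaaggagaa
The window is 58.8% G and C, against a median of 52.4% over all 32851 windows of this length. CCAAT, searched on both strands, is in 33.8% of those windows. The letters GACCACCCA, a consensus for Gli proteins searched on both strands, were not found in the window, and 0.225% of all windows hold them. The RefSeq window of Cdon lies inside the annotated gene, where its end overlaps an exon of other transcripts, and is not printed. Boc had no window in the table.

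The libraries held 49913485 (E11.5) and 67838169 UMIs (unique transcript counts), and a cell had a median of 6231 and 9280. The deposited cells had lowest totals of 2253 and 500 UMIs and highest mitochondrial shares of 7.90% and 19.98%. The libraries shared 71 cell barcodes. The authors' clusters were grouped into classes by their lineage names and by marker genes: 11 mesenchymal clusters in each library, 2 and 3 epithelial clusters, 1 and 3 muscle clusters, and endothelial, erythroid and glial clusters. In the mesenchyme, the summed level of 6 mesenchymal markers was 1354 CPM (counts per 1000000, UMIs scaled by the total of the class) in the E11.5 library and 2188 CPM in the other, and no marker was at 0. Transcripts of other cells also differed there between the stages. The 6 erythroid markers summed to 11520 and 1543 CPM, the 6 muscle markers to 25.7 and 76.6 CPM, and the 7 epithelial markers to 26.3 and 95.8 CPM. The part of these transcripts in the stage differences below was not tested.

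Gas1 was found mainly in the mesenchyme, muscle and part of the epithelium. Its class levels at E11.5 were 164 CPM in muscle, 154 CPM in mesenchyme, 68.8 CPM in epithelium, 54.4 CPM in glia, 22.1 CPM in endothelium and 16.9 CPM in erythroid cells. At E13.5 they were 331 CPM in mesenchyme, 136 CPM in muscle, 111 CPM in epithelium, 51.9 CPM in glia, 27.5 CPM in endothelium, 10.3 CPM in erythroid cells and 7.36 CPM in macrophages. At E11.5 the intervals of the neighbours muscle and mesenchyme, epithelium and glia, glia and endothelium, and endothelium and erythroid cells overlapped, and at E13.5 those of erythroid cells and macrophages. Erythroid cells should lack the gene, so their 0.226 and 0.179 Gas1 UMIs per cell give the level that free RNA can reach. Haemoglobin takes up most of their UMIs, and without it their levels were 49.1 and 87.6 CPM, above the 22.5 and 28.4 CPM of endothelium on that scale. At E13.5 glia (52.2 CPM), macrophages (7.48 CPM), muscle cluster 19 (48.5 CPM), epithelial clusters 9 and 16 (53.9 and 65.4 CPM) and mesenchymal cluster 11 (37.4 CPM) also lay below 87.6 CPM, so free RNA limits their Gas1 levels. Per cell, all of these but the macrophages (0.123 UMIs) held more Gas1 UMIs than erythroid cells. Mesenchymal cells held 0.977 and 2.91 Gas1 UMIs per cell. The mesenchyme held 89.8% of all Gas1 UMIs at E11.5, where it held 74.7% of all UMIs, and 77.0% at E13.5, where it held 50.6%.

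Boc was counted far less often, with 510 UMIs in the E11.5 library and 948 in the E13.5 library. Its class levels at E11.5 were 12.2 CPM in mesenchyme, 8.21 CPM in muscle, 8.09 CPM in epithelium, 4.14 CPM in endothelium and 1.64 CPM in erythroid cells. At E13.5 they were 21.3 CPM in mesenchyme, 11.6 CPM in epithelium, 4.84 CPM in muscle, 3.35 CPM in endothelium and 0.279 CPM in erythroid cells, the last from 1 UMI. Without haemoglobin the erythroid levels were 4.77 and 2.37 CPM, against 4.23 and 3.465 CPM in endothelium. On that scale free RNA thus limits the E11.5 Boc level of endothelium. Per cell, endothelium held 0.0370 Boc UMIs at E11.5, against 0.0219 in erythroid cells. The mesenchyme had the highest value at both stages. At E11.5 its interval (11.1 to 13.3 CPM) overlapped those of muscle and epithelium, and at E13.5 its interval (19.8 to 22.9 CPM) lay above that of the epithelium (9.64 to 13.8 CPM). The unnamed E13.5 cluster 8, of 304 cells with a median of 935.5 UMIs and led by haemoglobin genes, was at 99.1 CPM of Gas1, 15.3 CPM of Boc and 16.8 CPM of Cdon.

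Cdon had 352 and 1038 UMIs. At E11.5 its class levels were 8.18 CPM in mesenchyme, 6.74 CPM in epithelium, 5.48 CPM in muscle, 2.29 CPM in erythroid cells and 2.07 CPM in endothelium. The 3 highest of these overlapped, and endothelium lay at the erythroid level. Without haemoglobin, erythroid cells were at 6.67 CPM, mesenchyme at 8.28 CPM, epithelium at 6.82 CPM, muscle at 5.57 CPM and endothelium at 2.11 CPM. Free RNA thus limits these Cdon levels. Per cell, erythroid cells held 0.0307 Cdon UMIs, against 0.0517 in mesenchyme, 0.0494 in epithelium, 0.0662 in muscle and 0.0185 in endothelium. The E13.5 levels of Cdon were 22.3 CPM in mesenchyme, 10.5 CPM in epithelium, 8.66 CPM in muscle, 8.40 CPM in glia, 3.35 CPM in endothelium and 0.837 CPM in erythroid cells. Mesenchyme stood above each named class, and epithelium, muscle and glia overlapped. Without haemoglobin, E13.5 erythroid cells were at 7.10 CPM, from 3 UMIs, against 8.68 CPM in muscle and 8.44 CPM in glia. Per cell, they held 0.0145 Cdon UMIs, against 0.169 in muscle and 0.108 in glia. In glia at E11.5 no Cdon UMI was found in 26 cells, which allows a level of up to 11.7 CPM.

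**Figure D1:**
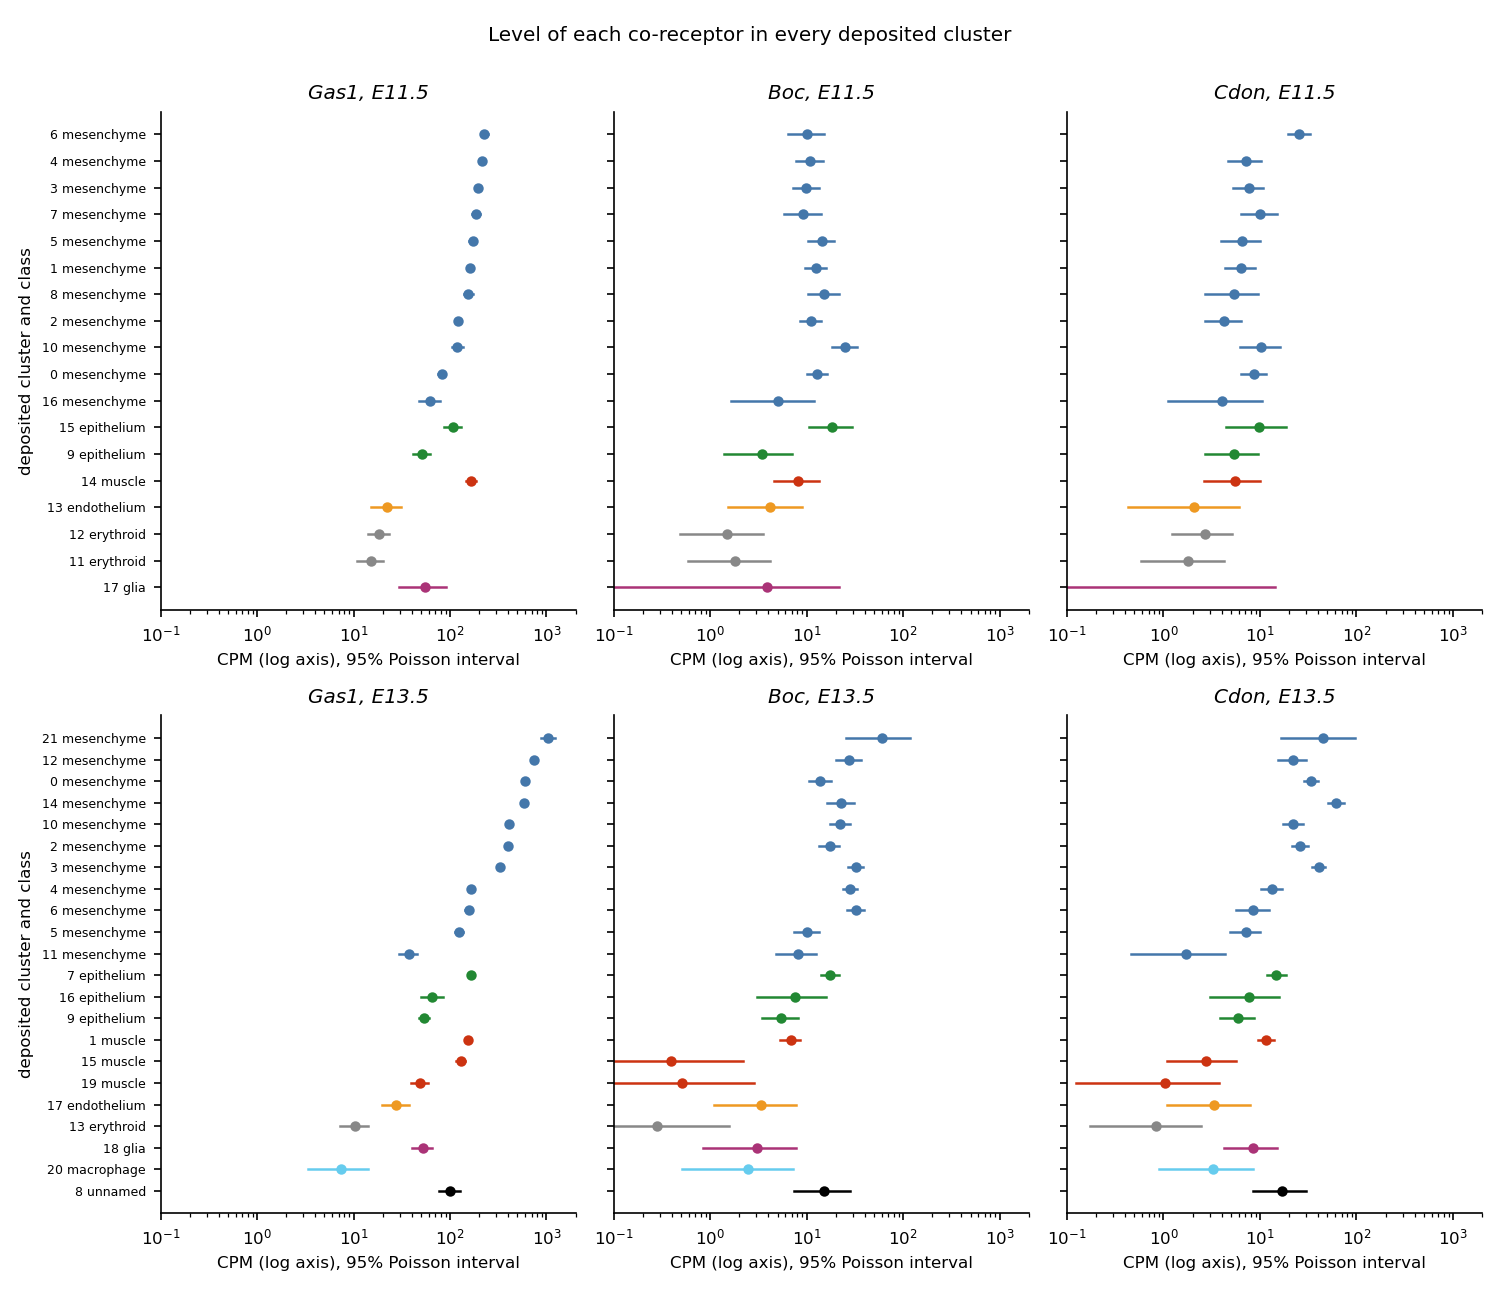
Level of Gas1, Boc and Cdon (CPM on a log axis, points) in each deposited cluster at E11.5 (top) and E13.5 (bottom), coloured by class, with 95% Poisson intervals that are cut at the left edge. Clusters are ordered within a class by their Gas1 level. The E13.5 mesenchymal clusters run from 37.3 to 1036 CPM of Gas1, the E11.5 ones from 62.0 to 227 CPM.

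The first comparison asked whether the co-receptors differed between the stages within a class. In the mesenchyme all 3 were higher at E13.5. Gas1 was at 154 CPM (5761 UMIs) at E11.5 and at 331 CPM (11358 UMIs) at E13.5, 2.14-fold higher (2.08 to 2.21). Boc was at 12.2 CPM (454 UMIs) and 21.3 CPM (731 UMIs), 1.75-fold higher (1.56 to 1.97). Cdon was at 8.18 CPM (305 UMIs) and 22.3 CPM (766 UMIs), 2.73-fold higher (2.39 to 3.13). Each ratio met a rule of size, at least 20 UMIs over both libraries, at least 1.5-fold and an interval without 1, and is then said to be called higher. By the same rule 27.0% of 14139 genes were called higher in the mesenchyme and 12.2% lower, so a call in this class is common. Ordered from the highest ratio, Cdon ranked 1704, Gas1 2358 and Boc 3193 of these genes. The median log2 ratio of the members was 1.10, against 0.14 over all genes tested.

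The ratio of Gas1 in the mesenchyme was 1.88 to 2.35 when each cluster was left out in turn, that of Boc 1.64 to 1.89 and that of Cdon 2.46 to 3.20. Cells without a UMI of Xist, which the inactive X chromosome transcribes, gave 2.14 for Gas1, 1.73 for Boc and 2.69 for Cdon.

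Of the epithelium, muscle and endothelium, the other classes in which the rule was run, Gas1 met it in the epithelium. It was at 68.8 CPM (204 UMIs) and 111 CPM (1174 UMIs), 1.61-fold higher (1.39 to 1.88), where 9.33% of 11677 genes were called higher and 14.2% lower. This call turned on 1 cluster. Without E13.5 cluster 7, led by Gjb6 and Gjb2, the ratio was 0.812 (0.677 to 0.975). That ratio kept E11.5 cluster 15, which shares these leading genes, so it compares unlike mixtures of clusters. Gas1 was at 108 CPM in E11.5 cluster 15 and 166 CPM in E13.5 cluster 7. It was at 51.0 CPM in E11.5 cluster 9, and at 53.8 and 65.2 CPM in E13.5 clusters 9 and 16. The part of the cluster mixture in the call was not tested. Boc in the epithelium was at 8.09 and 11.6 CPM, with a ratio of 1.43 (0.920 to 2.32), and Cdon at 6.74 and 10.5 CPM, with a ratio of 1.55 (0.959 to 2.64). Both intervals held 1. With size factors in place of CPM, both met the rule, Boc at 1.65 (1.06 to 2.67) and Cdon at 1.78 (1.10 to 3.03), so these calls depend on the scaling.

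In muscle no member was called, against a background of 9.38% of 11428 genes higher and 13.7% lower. Gas1 was at 164 and 136 CPM, with a ratio of 0.828 (0.733 to 0.938) that was smaller than the fold required. Boc was at 8.21 CPM (15 UMIs) and 4.84 CPM (71 UMIs), a ratio of 0.590 (0.335 to 1.11). Cdon was at 5.48 CPM (10 UMIs) and 8.66 CPM (127 UMIs), a ratio of 1.58 (0.832 to 3.38). In the endothelium Gas1 was at 22.1 and 27.5 CPM, with a ratio of 1.24 (0.763 to 2.04), and Boc and Cdon had under 20 UMIs each. Macrophage markers summed to 691 CPM in the E11.5 endothelium and to 11.4 CPM in the E13.5 endothelium. The part of such transcripts in the endothelial ratios was not tested. The background there was 7.43% of 8586 genes higher and 13.6% lower.

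**Figure D2:**
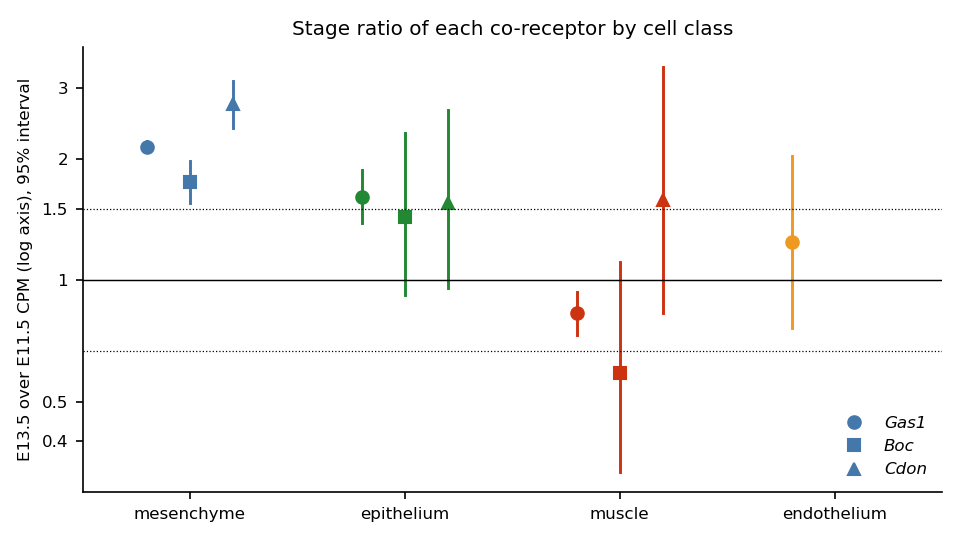
Ratio of E13.5 over E11.5 CPM (log axis) of Gas1 (circles), Boc (squares) and Cdon (triangles) in 4 cell classes, with 95% intervals. The solid line is a ratio of 1 and the dotted lines mark 1.5-fold. All 3 mesenchymal intervals lie above 1.5, those of Boc and Cdon in epithelium and muscle cross 1, and Boc and Cdon in endothelium are not drawn, with under 20 UMIs.

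Shares of mesenchymal cells with a UMI differed in the same direction. After each cell was thinned to 2000 UMIs, Gas1 was found at E11.5 in 26.8% (25.7 to 28.0%) of 5899 cells, and at E13.5 in 43.9% (42.3 to 45.5%) of 3826. Boc was found in 2.22% (1.86 to 2.63%) and 3.82% (3.23 to 4.47%), and Cdon in 1.83% (1.50 to 2.21%) and 4.42% (3.79 to 5.12%). No E11.5 mesenchymal cell and 79 E13.5 mesenchymal cells were too shallow for this and were left out. Without thinning the shares were 55.5 and 76.0% for Gas1, 7.12 and 16.1% for Boc, and 4.98 and 16.2% for Cdon. In erythroid cells, with median depths of 13137 and 18517 UMIs against 5895 and 8303 in the mesenchyme, the thinned Gas1 share was 2.41% and 0.971%. No UMI of any member was found in 70.4% and 52.5% of thinned mesenchymal cells.

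The next comparison was among the mesenchymal clusters of each library, which the authors made from these same cells, so the levels are given as a description. At E11.5 Gas1 varied 3.65-fold, from 62.0 CPM in cluster 16, led by Igfbp7, Penk and Pax9, to 227 CPM in cluster 6, led by Pax1, Rspo3 and Igf1. Cluster 4, led by Hand1, was at 217 CPM and overlapped cluster 6. Cluster 0, led by Cited1, Foxf1 and Osr1, was at 81.8 CPM. Only 2 of the 10 pairs of neighbours in this order had intervals that did not overlap.

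At E13.5 the spread of Gas1 was wider. The lowest was cluster 11, led by Meox2, Sp5 and Rspo1, at 37.3 CPM. The osteogenic progenitors of the authors (cluster 5, led by Ibsp and Sp7) followed at 124 CPM, then cluster 6 (Aldh1a3, Thbs4) at 157 CPM and cluster 4 (Thbs4, Mxd3) at 166 CPM. In the middle lay cluster 3 (Barx1, Slit2) at 330 CPM, cluster 2 (Stmn2, Pax1) at 396 CPM and cluster 10 (Cdkn2c, Mxd3) at 407 CPM. Cluster 14, led by Dpt, Dio3 and Lox, was at 591 CPM. Cluster 0 (Ebf1, Gdf10, Msx1) was at 605 CPM and cluster 12 (Smoc2, Gfra2, Ntrk2) at 743 CPM. Of 10 pairs of neighbours, 7 did not overlap.

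Cluster 21, led by Sst, Tac1 and Sfrp4, was highest of all at 1036 CPM (871 to 1224). It held 72 cells with a median of 1833 UMIs and a median mitochondrial share of 14.5%. With it the highest and lowest clusters differed 27.8-fold (21.1 to 36.7), and without it 19.9-fold. In the same clusters the share of thinned cells with a Gas1 UMI ran from 6.48% in cluster 11 (3.88 to 10.0%) to 71.3% in cluster 14 (64.1 to 77.7%) and 80.0% in cluster 21, where 30 cells were deep enough.

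Cdon at E11.5 stood out in 1 cluster. Cluster 6 was at 25.5 CPM (19.5 to 32.8, 61 UMIs), apart from the next in order, and the other 10 mesenchymal clusters lay between 4.07 and 10.4 CPM. Cluster 6 was also the highest in Gas1, but at 10.0 CPM it was not high in Boc. At E13.5 Cdon ran from 1.70 CPM in cluster 11, from 4 UMIs, to 62.1 CPM in cluster 14 (51.0 to 74.9), a ratio of 36.6 (13.9 to 137). Cluster 11, with 0.0143 Cdon UMIs per cell, was at the erythroid background of 0.0145. Cluster 3 was at 40.7 CPM, cluster 0 at 33.8 CPM, and the osteogenic cluster 5 at 7.13 CPM. Without haemoglobin the erythroid background of Cdon was 6.67 CPM at E11.5, within the range of the 10 clusters below cluster 6. At E13.5 it was 7.10 CPM, close to the osteogenic cluster.

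Boc followed another order. At E11.5 its highest cluster was cluster 10, led by the cartilage genes Sox9 and Col2a1, at 25.1 CPM (18.4 to 33.5). The remaining clusters were at 5.08 to 15.1 CPM, and no pair of neighbours was apart. At E13.5 cluster 3 was at 32.2 CPM, cluster 6 at 32.1 CPM and cluster 4 at 28.4 CPM, and cluster 11 at 8.06 CPM and the osteogenic cluster at 10.0 CPM were the lowest. Cluster 21 was at 59.7 CPM, from 8 UMIs.

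Clusters could thus be alike in one member and not in another. At E13.5 clusters 3 and 6 had a Boc ratio of 1.01 (0.766 to 1.32), while cluster 3 was 2.11-fold higher in Gas1 (1.90 to 2.34) and 4.80-fold higher in Cdon (3.17 to 7.52). At E11.5 cluster 6 over cluster 10 was 2.46-fold higher in Cdon (1.45 to 4.36) and 1.90-fold higher in Gas1 (1.62 to 2.23), and its Boc ratio was 0.3999 (0.2335 to 0.6689). Across the 11 E13.5 mesenchymal clusters, Pearson's r of log2(CPM + 1) was 0.92 for Gas1 and Cdon, 0.62 for Gas1 and Boc and 0.60 for Boc and Cdon. At E11.5 it was 0.48, 0.21 and 0.19. These are descriptions over clusters that share a library, its depth and its free RNA. The first stayed between 0.83 and 0.95 with any cluster left out, whereas the E11.5 value of Gas1 and Boc went from 0.44 to -0.48.

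The deposited cells also show whether transcripts of 2 members were found in the same cell. In thinned mesenchymal cells, Gas1 and Boc were found together in 41 E11.5 cells (0.695%) and 70 E13.5 cells (1.83%), which is 1.17 (0.839 to 1.58) and 1.03 (0.806 to 1.30) times the product of their shares within clusters. Gas1 and Cdon were found together in 32 cells (0.542%) and 99 cells (2.59%), 1.07 (0.729 to 1.50) and 1.06 (0.862 to 1.29) times that product. Boc and Cdon were found together in 1 and 11 cells. All 6 intervals of these ratios held 1, as they did at 4000 UMIs per cell. Without thinning 5 did, and Gas1 and Cdon at E11.5 were at 1.16 (1.003 to 1.332). UMIs of all 3 members were found in 1 and 4 thinned cells, and in 15 of 5899 and 110 of 3905 cells without thinning.

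The next comparison set the members beside genes induced by hedgehog signalling, across the mesenchymal clusters. At E11.5 the cluster with the least Gas1 had the most Ptch1. Cluster 16 was at 62.0 CPM of Gas1 and 65.1 CPM of Ptch1, and cluster 0 at 81.8 and 30.2 CPM. Cluster 6, at 227 CPM of Gas1, was at 6.69 CPM of Ptch1, and cluster 7, at 187 CPM, was at 6.68 CPM. Without haemoglobin, E11.5 erythroid cells were at 9.53 CPM of Ptch1. Per cell, both clusters held fewer Ptch1 UMIs than the erythroid 0.0439. The low end of Ptch1 thus lies at the level that free RNA can reach. Over the 11 clusters Pearson's r of Gas1 was -0.93 with Ptch1, -0.90 with Gli1 and -0.85 with Hhip, an inhibitor that binds the ligand. Hhip had 22 UMIs in all, with 0 to 6 in each of these clusters, so its r rests on counts near the floor. With any cluster left out they were -0.97 to -0.87, -0.94 to -0.82 and -0.89 to -0.72.

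At E13.5 cluster 11 was at 37.3 CPM of Gas1, 1.70 CPM of Cdon and 76.3 CPM of Ptch1. Clusters 12 and 14, at 743 and 591 CPM of Gas1, were at 6.31 and 4.55 CPM of Ptch1. Cluster 21 did not follow this order, with 1036 CPM of Gas1 and 74.6 CPM of Ptch1 from 10 UMIs. Without haemoglobin, E13.5 erythroid cells were at 14.2 CPM of Ptch1, from 6 UMIs. On that scale free RNA limits the Ptch1 levels of clusters 12 and 14. Per cell, both held more Ptch1 UMIs than the erythroid 0.0290. Over all 11 clusters r of Gas1 and Ptch1 was -0.43. It was -0.77 without cluster 21 and -0.15 without cluster 11, so the value rests on single clusters. With Gli1 it was -0.69 for Gas1 (-0.75 to -0.65 with any cluster left out) and -0.72 for Cdon (-0.78 to -0.65), and with Hhip 0.03 for Gas1. For Boc it was -0.36 with Ptch1 at E11.5, turning to 0.36 without cluster 16, and -0.09 at E13.5.

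**Figure D3:**
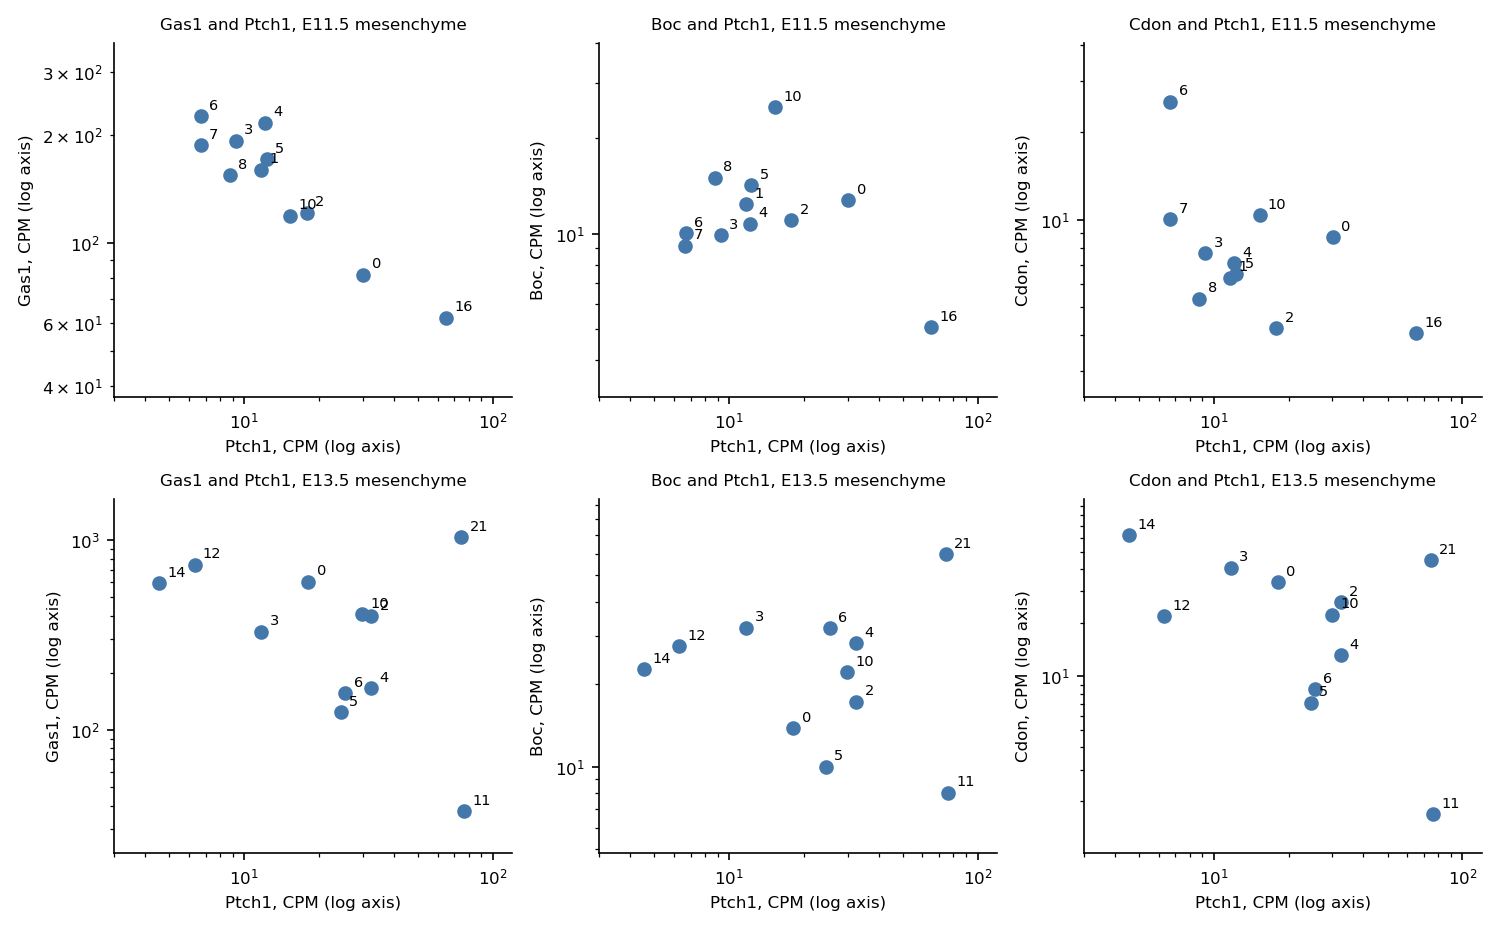
Level of Gas1, Boc and Cdon (vertical axes, CPM, log) against Ptch1 (horizontal axes, CPM, log) in the 11 mesenchymal clusters of each library, numbered as deposited. At E11.5 Gas1 declines from cluster 6 to cluster 16 along the Ptch1 axis, and at E13.5 cluster 21 lies apart from the other clusters in the Gas1 panel.

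Within clusters the same pair was met less clearly. In cells thinned to 2000 UMIs, Gas1 and Ptch1 were found together 0.803 (0.563 to 1.11) and 0.822 (0.623 to 1.06) times the product of their shares within clusters, with intervals that held 1. With 4000 UMIs per cell the values were 0.717 (0.571 to 0.888) and 0.798 (0.674 to 0.938), and without thinning 0.937 (0.825 to 1.06) and 0.936 (0.856 to 1.02). This pair was chosen after its cluster values were seen.

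Gas1 was named for its growth arrest-specific expression in cultured cells, so its level was compared between the phases that the authors assigned to each cell. At E11.5 mesenchymal G1 cells were at 156 CPM and S and G2M cells at 154 CPM, with a ratio of 1.01 (0.954 to 1.08). Gas1 was lower in G1 cells in 6 of 9 clusters with enough cells and higher in 3. In 1, cluster 5, the interval lay below 1 (157 against 200 CPM, 0.659 to 0.943). At E13.5 mesenchymal G1 cells were at 402 CPM and S and G2M cells at 262 CPM, with a ratio of 1.53 (1.48 to 1.59). The clusters differ in their share of G1 cells, from none in clusters 4 and 10 to 86.0% in cluster 12. With each cluster given the same weight, the E13.5 ratio was 1.12. In 7 of 9 clusters with enough cells Gas1 was higher in G1 cells, and in 1, cluster 12, the interval lay above 1 (775 against 584 CPM, 1.13 to 1.57). Clusters 2 and 10 share Stmn2, Sp9 and Twist2 among their leading genes. Cluster 10, with no G1 cell, was at 407 CPM of Gas1, and cluster 2, with 63.6% G1 cells, at 396 CPM, with a ratio of 1.03 (0.954 to 1.10).

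Boc had G1 ratios of 0.998 (0.798 to 1.24) and 1.02 (0.882 to 1.19), whose intervals held 1. Within E13.5 clusters 3 and 5 it was higher in G1 cells, by 1.80-fold (1.16 to 2.89) and 2.16-fold (1.12 to 4.40). Cdon was 1.48-fold (1.15 to 1.89) and 1.65-fold (1.42 to 1.91) higher in G1 cells. With equal weight of clusters these were 1.08 and 1.28, and the interval lay above 1 in 1 of 9 clusters at E11.5 (cluster 4) and in none of 9 at E13.5.

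In the epithelium Gas1 and Boc were lower in the clusters with more Shh, and Cdon was lower in 1 of them at E13.5. At E11.5 cluster 9, led by Fgf8 and Sfn and with 9.32 CPM of Shh, was at 51.0 CPM of Gas1, 3.43 CPM of Boc and 5.39 CPM of Cdon. Cluster 15, led by Gjb2 and Tfap2b and with no Shh UMI, was at 108, 18.3 and 9.70 CPM. Cluster 15 over cluster 9 was 2.11-fold higher in Gas1 (1.59 to 2.81) and 5.34-fold in Boc (2.10 to 15.2), while the Cdon ratio of 1.80 had an interval that held 1 (0.659 to 4.77). Boc in cluster 9, at 0.0255 UMIs per cell, was close to the erythroid 0.0219. Without haemoglobin, E11.5 erythroid cells were at 49.1 CPM of Gas1, 4.77 CPM of Boc and 6.67 CPM of Cdon. On that scale free RNA thus limits all 3 levels in cluster 9. Per cell, cluster 9 held more Gas1 and Cdon UMIs than the erythroid 0.226 and 0.0307.

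At E13.5 cluster 7, which shares the leading genes Gjb6, Gjb2 and Wnt6 with the E11.5 cluster 15, was at 166 CPM of Gas1, 17.5 CPM of Boc and 14.8 CPM of Cdon, with 2.28 CPM of Shh. Cluster 9, led by Dapl1 and Nkx2-3 and with 9.73 CPM of Shh, was at 53.8, 5.43 and 5.88 CPM. Cluster 7 over cluster 9 was 3.09-fold higher in Gas1 (2.67 to 3.58), 3.22-fold in Boc (2.04 to 5.28) and 2.52-fold in Cdon (1.597 to 4.091). Cluster 16, led by Krtdap and with 15.2 CPM of Shh, was at 65.2, 7.61 and 7.61 CPM. Without haemoglobin, E13.5 erythroid cells were at 7.10 CPM of Cdon, so on that scale free RNA limits its level in clusters 9 and 16. Per cell, both clusters held more Cdon UMIs than the erythroid 0.0145. Cluster 7 over cluster 16 was 2.55-fold higher in Gas1 (1.96 to 3.37) and 2.297-fold in Boc (1.07 to 5.87), and the Cdon ratio of 1.95 had an interval that held 1 (0.902 to 5.00). Cluster 16 cells had a median of 3061 UMIs and a median mitochondrial share of 13.8%. Within cluster 7 Gas1 was lower in G1 cells, at 136 against 186 CPM in S and G2M cells (0.634 to 0.845). Mesenchymal markers summed to 221 CPM in the E11.5 epithelium and 116 CPM in the E13.5 epithelium.

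Among the E13.5 muscle clusters all 3 members were highest in the one that held Pax7. E13.5 cluster 1, led by Msc and Pitx3, held Pax7, a marker of muscle progenitors, at 21.3 CPM and Myog, a factor of differentiation, at 222 CPM. Cluster 15 had no Pax7 UMI and Myog at 5564 CPM, and cluster 19, led by the contractile genes Mybph and Tnnc2, had no Pax7 UMI and Myog at 2901 CPM. Gas1 was at 154, 130 and 48.5 CPM in these clusters. Cluster 1 over cluster 19 was 3.19-fold higher (2.59 to 3.97), and cluster 15 over cluster 19 2.68-fold (2.13 to 3.41), while cluster 1 over cluster 15 was 1.19-fold (1.06 to 1.34).

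Cdon and Boc, known to promote myogenic differentiation at cell contacts, were counted mostly in cluster 1. Cdon was at 11.6 CPM (118 UMIs) there, at 2.73 CPM (7 UMIs) in cluster 15 and at 1.03 CPM (2 UMIs) in cluster 19. Cluster 1 over cluster 15 was 4.26-fold higher (2.003 to 10.82). Clusters 15 and 19 lay below the E13.5 erythroid 7.10 CPM of Cdon without haemoglobin, so on that scale free RNA limits their levels. Per cell, both clusters held more Cdon UMIs than the erythroid 0.0145. Boc was at 6.79 CPM (69 UMIs) in cluster 1 and had 1 UMI in each of the others, ratios of 17.4 (3.03 to 698) and 13.2 (2.29 to 528). The clusters differ in cell cycle, with 3.54, 84.0 and 100% G1 cells, and the part of the cell cycle was not tested. Mesenchymal markers summed to 260, 176 and 164 CPM in these clusters, against 2188 CPM in the mesenchyme.

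The single E11.5 muscle cluster, with Pax7 at 6.57 CPM and Myog at 579 CPM, was at 164 CPM of Gas1, 8.21 CPM of Boc and 5.48 CPM of Cdon. The muscle stage ratios depended on the E13.5 cluster 1. Without it the ratio was 0.577 for Gas1, 0.0540 for Boc and 0.365 for Cdon.

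The other genes of the pathway were taken from a list of 33, of which 32 were in both tables. In the mesenchyme 29 had at least 20 UMIs, 8 were called higher and 2 lower, against 27.0% and 12.2% of all genes, and the median log2 ratio was 0.06 against 0.14. The share of the list called higher is near that background. Among ligands, Shh had 1 and 6 UMIs in the mesenchyme, and Ihh, the ligand of the growing skeleton, was at 0.107 and 0.554 CPM (4 and 19 UMIs), 5.17-fold higher. Of the genes for ligand release, Scube2 was 5.32-fold higher (2.56 to 12.4), from 9 and 44 UMIs. Scube1 was at 13.3 and 7.67 CPM and was 1.73-fold lower. Disp1 was at 5.15 and 5.37 CPM and was not called.

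Of the receptors, Ptch1 was at 15.95 and 26.8 CPM, 1.68-fold higher (1.51 to 1.87). Smo was at 57.4 and 56.4 CPM, with a ratio of 0.984 (0.925 to 1.05). Of the genes that bind or retain the ligand, Hhip was at 0.590 and 5.16 CPM, 8.75-fold higher (5.60 to 14.3). The glypican Gpc3 was at 368 and 761 CPM, 2.07-fold higher (2.03 to 2.11). Gpc4 was at 7.13 and 31.1 CPM, 4.35-fold higher (3.80 to 5.00).

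Of the 10 genes of the cilium and of intracellular transduction, Mosmo was not in both tables, Gpr161 was called lower, at 5.52 and 3.41 CPM, 1.62-fold lower, and none was called higher. The Gli genes were not called: Gli1 was at 12.04 and 11.52 CPM, Gli2 at 11.2 and 14.2 CPM and Gli3 at 26.9 and 26.4 CPM. Of the mesenchymal genes known to respond to the pathway, Foxf2 was at 17.02 and 50.62 CPM, 2.97-fold higher (2.71 to 3.26). Osr2 was at 48.1 and 121 CPM, 2.52-fold higher (2.38 to 2.66). Foxf1, at 57.9 and 54.0 CPM, and Foxl1 were not called.

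In the epithelium 27 genes of the list were measured. None was called higher and 4 were called lower, against 9.33% and 14.2% of all genes, among them Foxf1, Gpc6 and Evc2, with ratios of 0.207, 0.311 and 0.633. Shh was at 6.403 and 6.504 CPM, with a ratio of 1.02 (0.604 to 1.79). In muscle 24 were measured, against 9.38% of all genes higher and 13.7% lower, and Gpc4 was called higher. Ptch1 (17.5 and 9.96 CPM), Gli1 (15.3 and 6.61 CPM), Hhip, Gpc6, Kif7 and Foxf1 were called lower. In the endothelium 8 were measured, with Gpc3 and Osr2 called higher and none lower, against 7.43% and 13.6% of all genes. These calls moved with the scaling: with size factors 1 gene was called higher and 2 lower in the epithelium, and 3 higher and 2 lower in muscle.

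A second list held 17 partners and relatives of the members, 15 of them in both tables. In the mesenchyme 14 were measured, 10 were called higher and none lower, against 27.0% and 12.2% of all genes, and the median log2 ratio was 1.49 against 0.14. Gas1 resembles the GFR alpha family, the co-receptors of the kinase Ret. Gfra1 was at 0.751 and 6.36 CPM, 8.47-fold higher (5.698 to 13.04). Gfra2 was at 5.74 and 30.0 CPM, 5.24-fold higher (4.51 to 6.09). Gfra3 and Gfra4 were 4.23-fold and 2.75-fold higher, and Ret, with 6 and 61 UMIs, was 11.1-fold higher (4.80 to 31.3). Gfra3, at 0.697 and 2.945 CPM in the mesenchyme, is also among the leading genes of the glial clusters of both stages. The part of glial transcripts in its ratio was not tested.

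Of the axon guidance relatives of Boc and Cdon, Robo2 was at 17.1 and 43.0 CPM, 2.52-fold higher (2.298 to 2.774). Robo1, at 33.2 and 26.6 CPM, was not called. The netrin receptor Neo1 was at 17.5 and 26.4 CPM, 1.51-fold higher (1.36 to 1.67). Its ratio with size factors was 1.47, which was not called. The ligand Ntn1 was at 1.69 and 4.87 CPM, 2.88-fold higher (2.15 to 3.92). The cadherins Cdh2 and Cdh15 were not called. Myod1 and Myog, also among the 10, are muscle genes. At E13.5 they were at 5.13 and 13.8 CPM in mesenchyme and at 559 and 1511 CPM in muscle. Both are themselves among the muscle markers summed above, so that sum is no separate measure beside their ratios. The part of muscle transcripts in these ratios was not tested.

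In muscle, where 9.38% of all genes were called higher and 13.7% lower, 6 of 12 measured partners were called higher, among them Cdh15 (53.1 and 135 CPM), Myod1, Myog and Pax7, and 4 lower, which were Cdh2, Gfra1, Myf5 and Robo1. In the epithelium 2 of 9 were called higher (9.33% of all genes), Myod1 and Myog, and 2 lower (14.2%), Cdh2 and Robo2. In the endothelium 3 were measured, with Myog called higher (7.43%) and Cdh2 lower (13.6%). The muscle markers summed to 17.9 and 67.4 CPM in the epithelium and to 55.9 and 115 CPM in the endothelium. Myod1 and Myog are themselves among these markers, and the part of muscle transcripts in the calls was not tested.

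**Figure D4:**
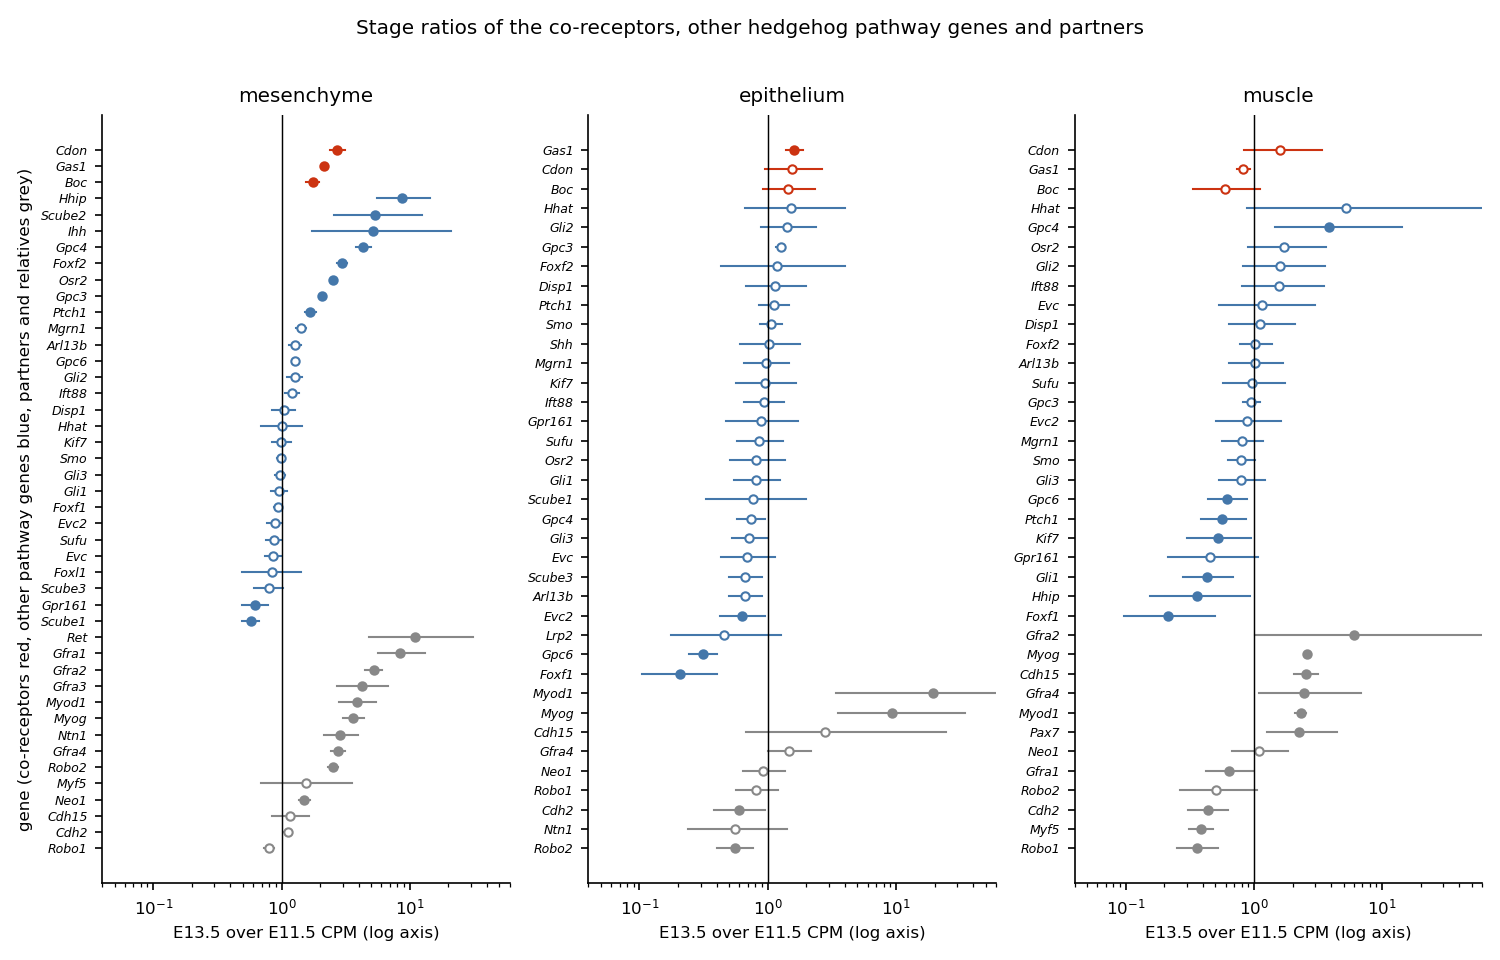
Ratio of E13.5 over E11.5 CPM (log axis) in mesenchyme, epithelium and muscle for the co-receptors (red), other hedgehog pathway genes (blue) and partners and relatives (grey) with at least 20 UMIs that are reported by name. Filled points were called by the rule of size, open points were not, lines are 95% intervals cut at the edges. All 3 co-receptors are filled in the mesenchyme, 1 in the epithelium and none in muscle.

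The genes most like each member were those with the highest of 5685 genes in Pearson's r of log2(CPM + 1) across the 11 mesenchymal clusters, taking the lower r of the 2 libraries. For Gas1 they included Col1a2, a chain of type I collagen, with r of 0.86 and 0.84, then Plekhg2, Mgst1 and Mmp11. For Boc they were Itga5, an integrin chain, with 0.76 and 0.79, and Wac, Serinc2, Chd6 and Lpcat1. For Cdon they were Nagk, with 0.80 and 0.81, and Mn1, Col1a2, Plat and S1pr3. With Spearman's rho, 2 of the 5 most alike genes were again found for Gas1, 1 for Boc and none for Cdon, so these names depend on the measure.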

How the data were processed

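Per the labels' protocols, mandibular prominences of CD1 embryos were minced and digested cold (12.5 mg of tissue for 10 minutes), and 9600 cells were loaded to target 6000. How many embryos were pooled is not stated in the labels. For each cell the authors deposited UMI counts per gene, together with metadata holding the mitochondrial share as a fraction, cell cycle values as a score and phase call, cluster numbers and lineage names. The tools Cell Ranger 2.0.0 and Seurat 2.3.4, and the build mm10, come from the submitters' processing notes, per the labels. For intron counting, strand and doublet removal, the handling is not given in the sources used here.

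From these counts, UMIs were summed over the cells of a class or cluster and divided by their total to CPM, with exact Poisson intervals. Ratios have exact conditional binomial intervals and shares exact Clopper-Pearson intervals. Cells were thinned to 2000 UMIs by drawing without replacement. With 1 library per stage no test was run, and calls follow a rule of size (20 UMIs, 1.5-fold, interval without 1) over all genes in both tables. A count of 0 allows up to 3 counts. The rule was tested on simulated counts that held counting error alone. That test does not cover differences between libraries, free RNA or variation between cells. No doublet caller was run. E11.5 cluster 17 carries the authors' name of neural crest mesenchyme; glial markers lead it, and it was placed with the glia. E13.5 cluster 8 stayed unnamed. In E13.5 cluster 20, the authors' mast cells, macrophage markers lead. Clusters are named by genes among their 10 leading by fold. Levels are compared within a gene, since UMIs are not scaled by length. Measured genes of the 2 lists could be named, together with the 5 genes most like each member, and other names are leading genes. A few of these genes count in the totals but are not reported here by name or drawn. The members and lists were chosen with earlier results of these data known. Scripts ran in Python 3.11.15 with pandas 2.3.3, scipy 1.17.1, numpy 2.4.6 and, for plots, matplotlib 3.10.9. Alternatives in scaling, cell filters, phase, depth and clusters left out are given in the closing section.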

Additional observations from a re-analysis of the deposited data

Results flagged for a closer look

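A few genes of the lists were called in opposite directions in 2 classes by the rule of size. The difference between the classes was not tested, since each class has 1 library per stage. Ptch1 had a ratio of E13.5 over E11.5 of 1.68 in the mesenchyme and 0.568 in muscle. Hhip had ratios of 8.75 and 0.358, the latter from 8 and 23 UMIs. Gfra1 had ratios of 8.47 in the mesenchyme and 0.636 in muscle. Robo2 had ratios of 2.52 in the mesenchyme and 0.555 in the epithelium. With size factors the mesenchymal calls held, as did that of Robo2 in the epithelium (0.636), but the muscle ratios were 0.664 (0.450 to 1.01) for Ptch1, 0.418 (0.181 to 1.08) for Hhip and 0.743 (0.493 to 1.16) for Gfra1, and none of these 3 was called, so their opposite calls depend on the scaling.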

How the results depend on the processing

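Depth limits Boc and Cdon, with under 20 UMIs in the endothelium and, in differentiated muscle clusters, 1 UMI each of Boc and 7 and 2 of Cdon. No paired analysis was possible because each stage has 1 library. A value was the same within the interval of its main ratio, within 1.5 times a main count, or within 0.20 of a main correlation. Of 198 recomputed values, 158 were the same, 40 moved and none reversed. Of 354 values without 1 cluster, 309 were the same, 44 moved and 1 reversed. Reversed was counted only for main ratios that were called or had an interval without 1, and for strong main correlations. Other changes of direction are among the moved or same values. At E11.5, r of Boc and Ptch1 was -0.36 and Spearman's rho 0.15, and r of Gas1 and Boc went from 0.21 to -0.48 without cluster 16. Except where named, the cause of a move was not tested. Size factors shifted the median log2 ratio of all genes by -0.04 in mesenchyme, 0.20 in epithelium, 0.22 in muscle and 0.15 in endothelium.

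The mesenchymal ratio of Gas1 was 2.24 with totals without haemoglobin, mitochondrial and ribosomal protein genes, 2.34 as the mean of each cell's CPM, 2.58 in G1 cells and 2.71 with equal weight of clusters, where that of Boc was 2.02. In muscle the Gas1 ratio was 0.968 with size factors and 0.644 in G1 cells, and in endothelium 0.652 in G1 cells and 0.707 in cells without Xist. The ratio of thinned Gas1 shares, 1.64, was 1.87 at 1000 UMIs, 1.44 at 4000 UMIs and 1.37 without thinning. The highest over the lowest E13.5 cluster of Gas1 was 19.9 without cluster 21. With equal weight of clusters the G1 ratio was 1.08 for Cdon at E11.5, and 1.12 for Gas1 and 1.28 for Cdon at E13.5. With both libraries held to the stricter of their cell filters, the mesenchymal ratios were 2.12 for Gas1, 1.74 for Boc and 2.69 for Cdon, and without the 5% deepest cells of each cluster 2.18, 1.73 and 2.87. In the epithelium Cdon was then at 1.52 and 2.13 (1.19 to 4.15), the last past the rule, as it was at 1.69 (1.04 to 2.87) with totals without haemoglobin, mitochondrial and ribosomal protein genes. Size factors brought Boc and Cdon in the epithelium past it, at 1.65 and 1.78. Cdon in G1 muscle cells had no value, with 0 UMIs at E11.5.

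Counts of hedgehog genes moved as follows. With size factors the epithelium had 1 higher and 2 lower, and muscle 3 higher and 2 lower. At 2-fold the mesenchyme had 0 lower, the epithelium 2 lower, muscle 3 lower and the endothelium 1 higher. With the mean of each cell's CPM the mesenchyme had 1 lower, the epithelium 2 higher and the endothelium 1 higher. The endothelium had 1 higher at a minimum of 50 UMIs and 1 lower at a minimum of 1 UMI. Of the 5 genes most like each member, Spearman's rho kept 2 for Gas1, 1 for Boc and 0 for Cdon, and leaving out cluster 21 kept 2, 1 and 3. Spearman's rho at E11.5 was 0.15 for Boc and Ptch1, 0.19 for Boc and Gli1, 0.046 for Boc and Hhip, and -0.27 for Gas1 and Boc, which was 0.39 at E13.5.

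With 1 cluster left out in turn, mesenchymal ratios were 1.88 to 2.35 for Gas1, 1.64 to 1.89 for Boc and 2.46 to 3.20 for Cdon. Epithelial ratios were 0.812 to 2.20 for Gas1, reversed without E13.5 cluster 7, 0.633 to 3.38 for Boc and 0.917 to 2.04 for Cdon. Each of these epithelial ratios compares unlike mixtures of clusters. Muscle ratios were 0.577 to 0.910 for Gas1, 0.0540 to 0.704 for Boc and 0.365 to 1.81 for Cdon.

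The E11.5 correlations of Gas1 were then -0.97 to -0.87 with Ptch1, -0.94 to -0.82 with Gli1 and -0.89 to -0.72 with Hhip. Those of Boc were -0.53 to 0.36, -0.41 to 0.34 and -0.61 to 0.39, and those of Cdon -0.60 to -0.38, -0.66 to -0.47 and -0.62 to -0.44. Among members they were 0.32 to 0.59 for Gas1 and Cdon, -0.48 to 0.44 for Gas1 and Boc and -0.11 to 0.50 for Boc and Cdon.

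At E13.5 the same ranges were -0.77 to -0.15, -0.75 to -0.65 and -0.30 to 0.35 for Gas1, -0.52 to 0.23, -0.42 to -0.21 and -0.40 to 0.32 for Boc, and -0.77 to -0.28, -0.78 to -0.65 and -0.17 to 0.37 for Cdon. Among members they were 0.83 to 0.95, 0.39 to 0.73 and 0.34 to 0.70.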
